A study of Mus musculus with 142 samples.

Results

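The 4 clones of F121-9 mouse embryonic stem cells (mESCs) that had lost both OSN sites of element B on one homolog are described here across 3 states of element A. They were chosen by their deletion labels alone, and they make up 8 of the 142 samples of the series, an early and a late S-phase fraction for each of 4 of its 66 libraries with values. F121-9 is a hybrid line from a cross of a musculus and a castaneus (CAST) mouse strain, so that sequenced reads that cover a strain difference can be assigned to either homolog. All 4 clones carried the deletions on the musculus allele (the deletion allele) and kept the CAST allele unmodified (the control allele), and all 4 also lacked the OSN sites C-OSN-1, C-OSN-2 and C-OSN-3 of element C on the deletion allele. In BOSN12.COSN123 element A was intact (clone A2), in AOSN.BOSN12.COSN123 its site A-OSN-1 was lost as well (clone D6), and in A.BOSN12.COSN123 all of A was removed (clones A6 and C11). Each clone is 1 CRISPR-derived line with 1 library, grown in 2i and LIF, which hold mESCs in a naive state, and so 2 of the 3 deletions had no replicate. The labels name a further clone each of BOSN12.COSN123 and AOSN.BOSN12.COSN123, which were not analysed here. The paper recovered a single clone that lacked all 3 C OSN sites on the same allele, and added the A and B deletions to that line. The 4 clones thus share an ancestor.

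Replication timing (RT) is the order in which segments of a chromosome are copied during S phase, and domains that replicate early are mostly open and transcribed. Early replication control elements (ERCEs) are stretches of DNA that domains need in order to replicate early. OSN sites are places bound by OCT4, SOX2 and NANOG, the transcription factors that maintain the pluripotent state. ERCEs hold such sites, and the paper also describes OSN sites outside ERCEs that showed no ERCE activity. The domain studied holds Dppa2 and Dppa4, a pair of genes switched on in pluripotent cells, and its ERCEs are named A, B and C in their order along the chromosome.

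Element B spanned chr16:48396808-48443056 (GRCm38, the build also called mm10; 46249 bp) and holds the start of Morc1. B-OSN-1 was the 377 bp at chr16:48422340-48422716, between genes and 8521 bp before the Morc1 start. B-OSN-2 was the 496 bp at chr16:48435558-48436053, in an intron of Morc1 and 4321 bp after its start, so that 12.8 kb separated both sites. A-OSN-1 was the 662 bp at chr16:48308688-48309349 in an intron of Dppa2, 113 kb before B-OSN-1, inside element A at chr16:48308248-48311866 (3619 bp), which overlaps exons of Dppa2. Element A also holds A-OSN-2-TSS at chr16:48309960-48310625 (666 bp). The paper describes it as an active transcription start of Dppa2 that overlaps an OSN site. Clones A2 and D6 kept it, and A6 and C11 lost it with the rest of A. From B-OSN-2 to C-OSN-3, the nearest of the C sites, it was 170 kb, and all 3 C sites lay in introns of Morc1. The guide RNAs that set the ends of the deletions are given below 5′ to 3′, each on its own strand, with the adjoining PAM in capitals. They define which bases were lost, and each matched the reference genome at the position given.
A-OSN-1-G1 (chr16:48308671-48308693, + strand): cactgtagctgtcaccaaagAGG
A-OSN-1-G2 (chr16:48309344-48309366, - strand): aaagggaacctagttgcctaAGG
B-OSN-1-G1 (chr16:48422334-48422356, - strand): tggattgtgagtactctagcTGG
B-OSN-1-G2 (chr16:48422700-48422722, + strand): gctctataaagatgcaaatgAGG
B-OSN-2-G1 (chr16:48435552-48435574, - strand): ggtgcataaggatcttgaacTGG
B-OSN-2-G2 (chr16:48436048-48436070, - strand): gttgagaaggcacttgtgagTGG

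The lost DNA was searched on both strands for the octamer ATGCAAAT, the classical OCT4 motif, for the same with any base in the middle (ATGNAAAT, which includes the octamer), and for the SOX-type motifs CATTGT and CTTTGT. Shown are 200 bases across the right end of B-OSN-1 and 180 bases from within B-OSN-2, on the + strand of GRCm38, because they hold the matches. Capitals mark ACAATG (the first SOX-type motif, read on the other strand) and ATGCAAAT in the first, and ATGTAAAT in the second.
B-OSN-1 (chr16:48422537-48422736, + strand): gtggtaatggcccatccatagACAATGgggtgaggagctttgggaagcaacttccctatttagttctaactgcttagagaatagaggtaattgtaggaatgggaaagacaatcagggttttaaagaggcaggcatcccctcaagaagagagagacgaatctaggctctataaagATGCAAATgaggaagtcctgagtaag
B-OSN-2 (chr16:48435685-48435864, + strand): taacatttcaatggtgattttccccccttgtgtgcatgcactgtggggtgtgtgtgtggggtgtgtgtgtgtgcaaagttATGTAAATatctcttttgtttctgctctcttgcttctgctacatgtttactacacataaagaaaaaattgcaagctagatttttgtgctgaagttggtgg
The octamer of B-OSN-1 lay on the guide site at the right end of the deletion, with 6 of its 8 bases inside the deleted interval and 2 outside. Wholly within B-OSN-1 there was 1 CATTGT, which 23.2% of chromosome 16 regions of the same length hold, and no ATGNAAAT (15.6% of such regions). Wholly within B-OSN-2 there was 1 ATGNAAAT (20.1%) and neither CATTGT (29.3%) nor CTTTGT (39.4%). A-OSN-1 held CATTGT in 2 places (37.1%) and CTTTGT in 3 (48.7%). A match is a description of the letters and not evidence of binding.

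RT was given as log2 of early over late reads in 50 kb windows, named here by their start. Values above 0 are called early and values below 0 late. The authors had scaled and normalized the ratios, so differences are in units of that scale. The value 0, called the midpoint here, is a point of that scale and not a measured time in S phase. Read depth is unknown, since the files hold ratios. The control alleles of the 4 clones were set against the aggregate WT curve, the mean of the WT alleles of all clones. Over 48.2 to 48.6 Mb of chromosome 16, called the core here, 44 WT alleles lay between 0.70 and 1.30. Clone D6 stood apart. Its control allele was the latest of the 44 in the core (0.70), its alleles correlated least with each other across the genome of all 66 libraries (r = 0.923, against 0.938 to 0.955 in the other 3 clones), and its profiles changed most from window to window of all 132 profiles. Clone A2 had an offset. Its musculus minus CAST difference had a genome-wide median of -0.11 (the medians of the other 3 clones rounded to 0.00), and its CAST allele had no value on chromosome 11. Both features were shared by clones C4 and E6 of BOSN1.COSN123 (-0.11 in each) and F3 of AOSN.COSN12 (-0.097). The CAST allele of clone 2E.1 of A.B.COSN123 also had no value on chromosome 11, with a smaller offset (-0.031). The clone of COSN123 had neither feature (-0.0018). Results over areas that rest on A2 or D6 are therefore also given under other controls where this moved them. These were the deletion alleles alone, the aggregate WT curve, or each allele difference centred on its genome-wide median. What part these features had in the results was not tested.

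With both B OSN sites and the C OSN sites lost, the core was later than the control allele in all 4 clones, by 0.85 to 1.36 on the log2 scale, and no deletion allele kept the early core of WT cells. In clone A2, with A intact, the mean RT of the core was 0.07 on the deletion allele and 0.92 on the control allele. In clone D6, without A-OSN-1, it was -0.22 and 0.70. In clones A6 and C11, without A, it was -0.32 and -0.39 on the deletion alleles and 1.04 and 0.89 on the control alleles. The deletion alleles were thus ordered by the state of A, near the midpoint between early and late with A intact and below it in the other 3, whereas all control alleles were early. The order of the differences to the own control allele was the same (-0.85, -0.92, -1.36 and -1.28 in A2, D6, A6 and C11), but the step from A2 to D6 was 0.07 on this scale and 0.29 against the aggregate WT curve (-0.93 and -1.22). The SD between WT CAST alleles in the core was 0.13 (n = 42), which exceeds the first of these steps and not the second. Deletion alleles could vary more within a single clone. The 4 libraries of the COSN123 clone lay between 0.23 and 0.51, and repeat cultures of AOSN.B.COSN123 clone 5A.2, which lacks all of B, at -0.20 and 0.24. Whether the order of these deletion alleles exceeds such spread was not tested. For comparison, the core of COSN123, which keeps A and B, was at 0.41, that of AOSN.COSN123 at 0.70 and 0.52 in its 2 clones, and that of A.COSN123 between 0.15 and 0.28 in its 4 clones.

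**Figure D1:**
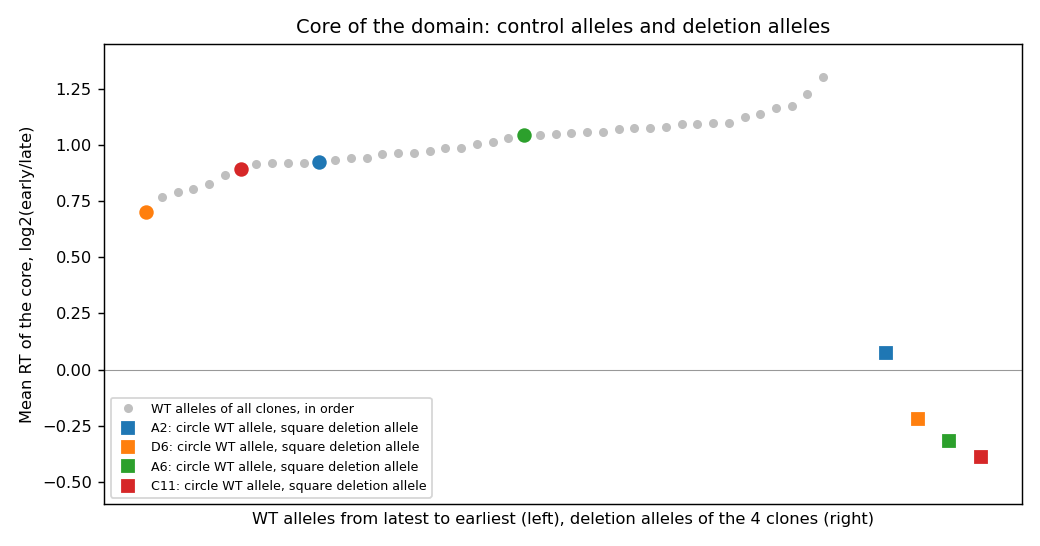
Mean RT (log2 of early over late) of the core, 48.2 to 48.6 Mb of chromosome 16, for 44 WT alleles in order from latest to earliest (circles, those of the 4 clones coloured) and for the deletion alleles of clones A2, D6, A6 and C11 (squares). The deletion alleles sit between -0.39 and 0.07, below every WT allele (0.70 to 1.30), and the WT allele of D6 is the latest of them.

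The shape of the profile changed along with its height. The control allele of each clone reached its earliest value in the window at 48.40 Mb, which holds both B OSN sites (1.07 in A2, 0.89 in D6, 1.29 in A6 and 1.04 in C11). On the deletion allele the earliest window of the domain was at 48.30 Mb in A2 (0.21), at 48.25 Mb in D6 (0.04), at 48.25 Mb in A6 (-0.10) and at 48.30 Mb in C11 (-0.23). The earliest point had therefore moved by 2 or 3 windows to the side of Dppa4 and Dppa2, also in the 2 clones that no longer carried A. In the 7 clones of COSN123, AOSN.COSN123 and A.COSN123, which keep B, the earliest window of the deletion allele was at 48.35 or 48.40 Mb.

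Windows on the side of A (48.25 and 48.30 Mb) and on the side of B (48.40 and 48.45 Mb) were averaged, 2 on each side. A second description of the shape was the A-side mean minus the B-side mean. It compares windows within 1 allele, so neither the control allele nor an offset enters it. It was chosen after the profiles had been seen, and no test was run. This difference was 0.17 in A2, 0.21 in D6, 0.19 in A6 and 0.17 in C11, so that the A side was earlier in all 4. On the control alleles of the same clones it was -0.17, -0.27, -0.20 and -0.06, and the B side was earlier. The deletion alleles of the 7 clones that keep B lay between -0.20 and -0.05 and did not overlap the 4. The ranges did overlap with those of all 44 WT alleles (-0.32 to 0.21, mean -0.14). With the B-TSS, the 140 bp at the Morc1 start, lost in addition (A.BOSN12.BTSS.COSN123), the difference was 0.41 in the single clone. With B-OSN-1 alone lost it was 0.04 and -0.16 in the 2 clones of BOSN1.COSN123 and -0.07 in A.BOSN1.COSN123. With all of B lost it was -0.15, -0.06, -0.17, 0.06 and -0.14 in the 5 clones of AOSN.B.COSN123, of which 4 had their earliest window at 48.40 Mb. The A side was thus earlier in 1 of these 5 clones. In the 2 clones of A.B.COSN123 it was -0.03 and 0.06, and their profile had no early point at A or B at all (the earliest windows of the domain were at 49.00 and 49.05 Mb).

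The latest point between the elements was on the far side of B. From the earliest window the deletion alleles fell to their latest value between 48.2 and 48.8 Mb in the windows at 48.70 or 48.75 Mb, past element C. This value was -0.83 in A2, -1.05 in D6, -0.99 in A6 and -0.94 in C11. The place was not particular to these alleles. The control alleles also had their latest value of this range at 48.75 Mb, its last window (0.52, 0.42, 0.55 and 0.50). So did the deletion alleles of the 7 clones that keep B, at -0.53 to -0.10, so that the depth differed. The 4 deletion alleles differed less here than in the core, and the order of the states of A was not kept. In each of the 4 windows from 48.60 to 48.75 Mb all 4 clones were later than their control allele by 1.18 to 1.76. On the C side of the domain (48.6 to 49.0 Mb) the mean difference was -1.09 in A2, -1.07 in D6, -1.21 in A6 and -1.14 in C11, a range of 0.14 over all states of A, compared with 0.51 in the core.

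Of the 40 windows of the domain (chr16:47500001-49500000), the control alleles had 19, 17, 20 and 20 above 0 (A2, D6, A6, C11). The deletion alleles had 7, 1, 0 and 0 windows above 0. With A intact the 7 windows ran from 48.20 to 48.50 Mb, over A and the place of the B OSN sites, at 0.02 to 0.21. With A removed no window stayed above the midpoint.

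**Figure D2:**
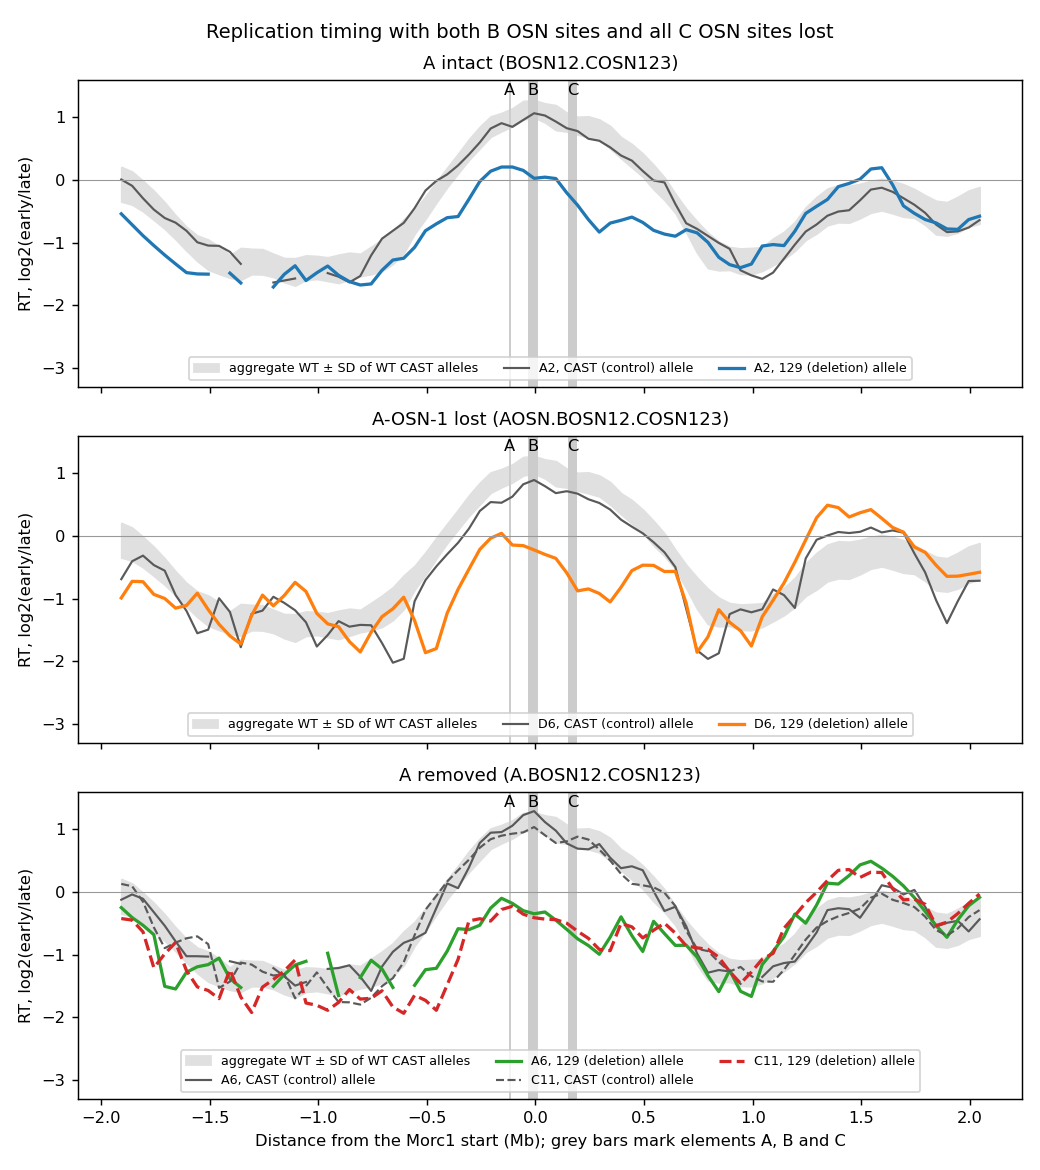
RT (log2 of early over late) in 50 kb windows against the distance from the Morc1 start in Mb, for BOSN12.COSN123 (clone A2), AOSN.BOSN12.COSN123 (D6) and A.BOSN12.COSN123 (A6 and C11), with the deletion alleles coloured, the control alleles as thin dark lines, and the aggregate WT curve ± SD of WT CAST alleles as a grey band. The control alleles peak at B, whereas the deletion alleles are highest on the side of A (0.21, 0.04, -0.10 and -0.23) and fall past C to between -1.05 and -0.83.

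Beyond the core the clones differed less uniformly. To the left, from the domain border to 48.2 Mb, the mean difference to the control allele was -0.49 in A2, -0.31 in D6, -0.57 in A6 and -0.75 in C11. C11 was lowest there, with -1.89 on the deletion allele and -0.06 on the control allele in the window at 47.95 Mb. To the right, from 49.0 Mb to the end of the domain, it was -0.13, -0.04, -0.18 and -0.09, the smallest differences of the domain in each clone. In the next domain (49.65 to 50.05 Mb) the musculus allele was earlier by 0.33, 0.32, 0.49 and 0.56. The same direction held there in 38 of 38 clones of the other deletions on the musculus allele with a WT CAST allele, with a mean of 0.47 ± 0.16 (SD), so that difference was shared with clones that keep both B OSN sites.

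A window was counted as delayed when the deletion allele was later than the control allele by 0.5 or more, a description with no test. Of the 80 windows of chr16:46500001-50500000, called the profile here, 35 were delayed in A2 (8.44% of autosomal windows with a value), 21 in D6 (9.62%), 26 in A6 (6.55%) and 33 in C11 (6.41%). In all 4 clones at once 20 windows were delayed, from 47.90 to 48.95 Mb, against 1.91% of windows over the autosomes. The stretch that was delayed in every state of A thus held Dppa2, Morc1 and the elements A, B and C. It had 1 gap, the window of Dppa4 at 48.25 Mb, where the difference was -0.49 in D6. With a threshold of 1 the windows delayed in all 4 clones were 6, between 48.40 and 48.80 Mb, and their number per clone was 7, 11, 16 and 17. After centring, 20 were again delayed in all 4 clones at the threshold of 0.5.

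The annotation places the starts of 14 protein-coding genes in the profile, 11 of them in the domain, and each was read in the window that holds its start. All 11 were later on the deletion allele in all 4 clones, 7 of them by 0.5 or more in every clone. The 3 to the right of the domain were earlier on the musculus allele in all 4 clones. Values are given in the order A2, D6, A6 and C11. The genes share windows and the windows were smoothed, so these are not independent counts.

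Dppa4 and Dppa2, both expressed in pluripotent cells and known to prime developmental genes and to promote the 2-cell-like programme, lie beside and around A. The RT of Dppa4 on the deletion allele was 0.21, 0.04, -0.10 and -0.28 (control alleles 0.91, 0.53, 0.96 and 0.90). That of Dppa2 was 0.21, -0.14, -0.18 and -0.23 (control alleles 0.85, 0.63, 1.06 and 0.93). These were the earliest genes of the domain on the deletion alleles, and in A2 both were still above 0. Morc1, which acts in the silencing of transposons in male germ cells and holds the start of its transcript in B, was at 0.03, -0.22, -0.35 and -0.41 (control alleles 1.07, 0.89, 1.29 and 1.04), and the neighbouring Gm5485 shares its window. On the control alleles Morc1 was earlier than Dppa2 in all 4 clones, and on the deletion alleles it was later in all 4.

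Past C the state of A made no ordered difference. Trat1, an adaptor of the T cell receptor, was at -0.69, -1.05, -0.72 and -0.94 on the deletion alleles (control alleles 0.52, 0.42, 0.55 and 0.50) and was the latest of the genes between B and 48.9 Mb in all 4 clones. Retnlb and Retnla, secreted proteins of the resistin family, share a window at -0.64, -0.82, -0.40 and -0.50. Retnlg, of the same family, was at -0.59, -0.55, -0.70 and -0.56. Each of these was early on all 4 control alleles (0.13 to 0.55) and late on all 4 deletion alleles. Dzip3, a ubiquitin ligase, and Cip2a, an inhibitor of the phosphatase PP2A, share a start window near the border of the early region and were at -0.80, -0.47, -0.47 and -0.61, with control alleles between -0.10 and 0.08. Myh15, a myosin heavy chain, was at -0.90, -0.56, -0.85 and -0.66, with a difference to the control allele of -0.07 in D6 and -0.43 to -0.62 in the other 3. In the next domain the differences were +0.29 to +0.59 for Ift57, a subunit of the ciliary transport complex, +0.39 to +0.73 for Cd47, a surface signal that restrains phagocytosis, and +0.11 to +0.41 for Bbx, a DNA-binding protein with an HMG box.

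To place the size of the delay among the rest of the genome, ∆area was computed, the area between the deletion and the control curve over the domain (log2 of early over late times 50 kb windows, negative for a delay). It was set against the other autosomal regions of 2 Mb in the same clones, without those in which the alleles differ in clones of other deletions. These regions overlap each other, and their share is not a test over replicates. For BOSN12.COSN123 ∆area was -24.0, and 0.0443% of 36091 regions had one at least as large. The regions of this clone had a median of -4.16, and after centring ∆area was -19.7 (0.0693% of regions). For AOSN.BOSN12.COSN123 it was -20.5 (0.365% of 41100 regions) and for A.BOSN12.COSN123 -30.9 (0 of 40505 regions). With no region left out for an allele difference the shares were 0.96% of 39174 regions, 2.02% of 44447 regions and 0.121% of 43860 regions (53 of them).

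The choice of control mattered in D6. Against the aggregate WT curve the ∆area of AOSN.BOSN12.COSN123 was -32.7, that of A.BOSN12.COSN123 -32.7 and that of BOSN12.COSN123 -24.5. The area between the control allele of D6 and the aggregate curve was itself -12.2, whereas it was -0.48, -0.94 and -2.86 for A2, A6 and C11. With its own control allele D6 had the smallest delay of the 4 clones, and with the aggregate curve it lay between A6 (-31.2) and C11 (-33.8).

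**Figure D3:**
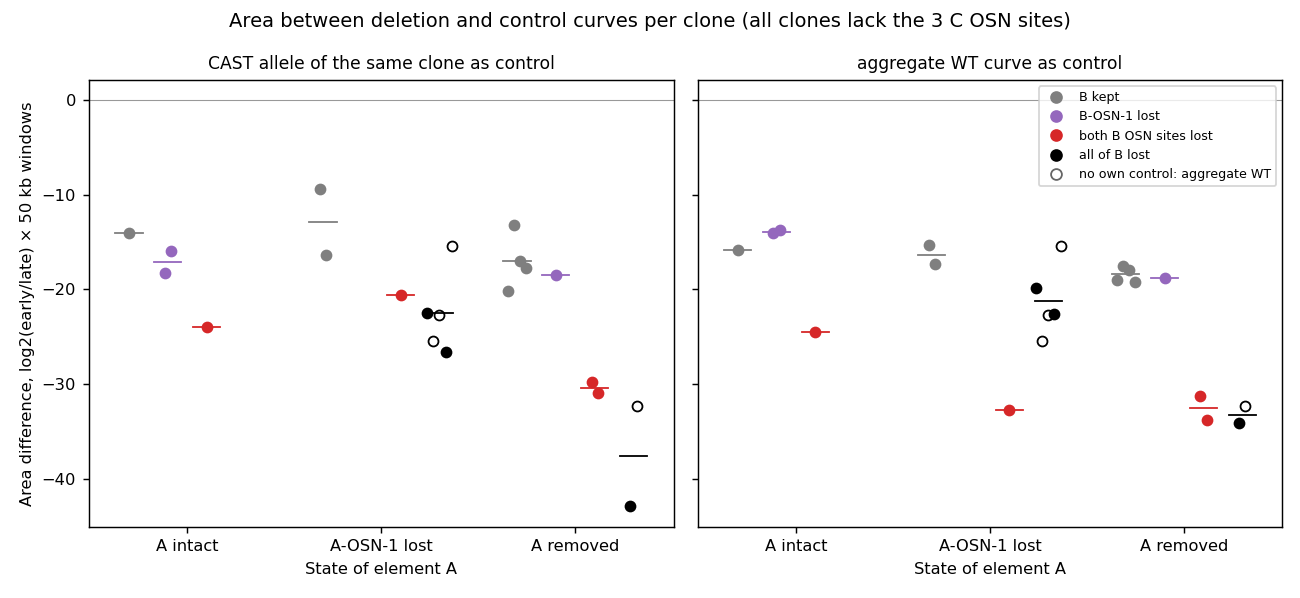
Area between deletion and control curve per clone (log2 of early over late times 50 kb windows) by the state of element A and of element B in clones that all lack the C OSN sites, against the CAST allele of the same clone (left) or the aggregate WT curve (right), with a line at each group's mean and open circles for clones without an unmodified CAST allele. Clones that lost both B OSN sites (red) lie below the clones that keep B (grey) in each state of A, and D6 moves from -20.5 to -32.7 with the choice of control.

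Whether losing both B OSN sites delayed the domain beyond the loss of the C OSN sites, in each state of A, was tested first over single clones. The ∆area of the 4 clones lay between -30.9 and -20.5, and that of the 7 clones of COSN123, AOSN.COSN123 and A.COSN123, which keep B, between -20.2 and -9.42. The ranges did not overlap, although the lowest clone that keeps B and the highest of the 4 were of different states of A and 0.40 apart, and after centring they did overlap (A2 at -19.7, the lowest clone that keeps B at -20.2). Within states of A the mean difference was -11.1, with p = 0.0111 in an exact two-sided permutation test over 90 arrangements, the smallest p that the design allows (Benjamini-Hochberg adjusted p = 0.0333 over 3 comparisons). Under the aggregate control, over 48 to 49 Mb, with medians and after centring this difference was between -13.6 and -8.52, each time with the same exact p.

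The same question was asked of each state of A with limma across all 677 autosomal intervals of 2 Mb, fitted over 51 clones of 25 deletions on the musculus allele, with Benjamini-Hochberg adjustment over all intervals. A single clone is there assumed to vary like the clones of the other deletions. With A removed, A.BOSN12.COSN123 was later than A.COSN123 by an area of -13.3 ± 2.8 (SE; 2 against 4 clones; limma adjusted p = 0.0062), and the interval was second by p among 677, of which 0.295% passed the threshold of 0.05. With only C11 left in the group the difference was -13.9 (limma adjusted p = 0.138) and with only A6 left -12.8 (limma adjusted p = 0.228), so the size held and the call was lost. With A intact, BOSN12.COSN123 minus COSN123 was -9.91 ± 4.5 (limma adjusted p = 0.407), where the median of all intervals was -3.93. After centring it was -5.68 ± 4.2 (limma adjusted p = 1.00), and on the deletion alleles alone -8.67 ± 4.8 (limma adjusted p = 0.997). With A-OSN-1 lost, AOSN.BOSN12.COSN123 minus AOSN.COSN123 was -7.65 ± 3.9 (limma adjusted p = 0.416). The latter used the late control allele of D6. On the deletion alleles alone it was -16.4 ± 4.2 (limma adjusted p = 0.0349), with 1.62% of 866 intervals called.

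Window by window, limma was run over 19693 autosomal windows with a value in every clone, of which 50 lie in the profile. In A.BOSN12.COSN123 minus A.COSN123, 6 of the 50 were later at a limma adjusted p of at most 0.05, against 0.178% of all windows called later. They were the windows at 48.40 Mb (-0.80 ± 0.17, SE), 48.45 Mb (-0.72 ± 0.14), 48.60 Mb (-0.71 ± 0.13), 48.65 Mb (-0.84 ± 0.14), 48.70 Mb (-0.89 ± 0.14) and 48.90 Mb (-0.70 ± 0.13). Without A6 their number was 3 and without C11 it was 7. The called windows thus held the B OSN sites, the Morc1 start and the stretch at and past C. The window of A itself, at 48.30 Mb, differed by -0.38 ± 0.14 (limma adjusted p = 0.307).

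In AOSN.BOSN12.COSN123 minus AOSN.COSN123, 8 of the 50 windows were called later, against 2.24% of all windows. They were 48.35 Mb (-0.75 ± 0.22), 48.45 Mb (-0.70 ± 0.20), each of the windows from 48.55 to 48.75 Mb (between -1.02 ± 0.18 at 48.60 Mb and -0.67 ± 0.20 at 48.70 Mb) and, past the right border of the domain, chr16:49500001-49550000 (-0.80 ± 0.22). The window of the B OSN sites at 48.40 Mb, with -0.72 ± 0.23, fell just outside (limma adjusted p = 0.0657). With A-OSN-1 lost the largest difference lay at C-OSN-1 to C-OSN-3, whose sites both deletions lack.

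In BOSN12.COSN123 minus COSN123, with A intact, 0 of the 50 windows were called by limma (0.0% of all windows were). An unadjusted limma p under 0.05 was reached by 4 of the 50, against 488 of all 19693 windows (1 and 218 after centring). All windows from 48.35 to 48.70 Mb were lower, by -0.58 ± 0.27 at 48.40 Mb, -0.58 ± 0.21 at 48.60 Mb and -0.34 to -0.47 in the others. Each side of this contrast is 1 clone.

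**Figure D4:**
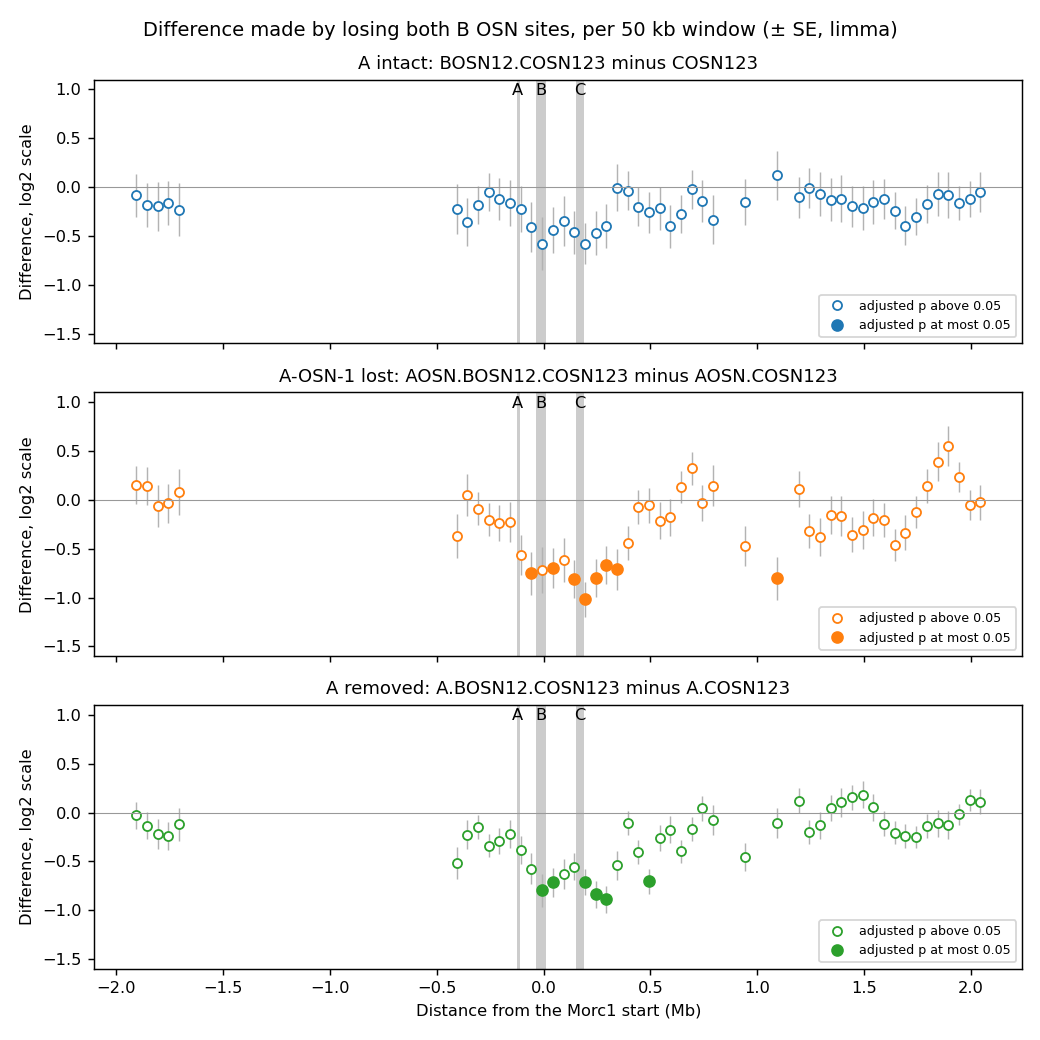
Difference in RT (deletion minus control allele, log2 scale) between clones that lost both B OSN sites and clones that keep B, per 50 kb window with a value in every clone, against the distance from the Morc1 start in Mb, with SE bars and filled points for a limma adjusted p of at most 0.05. The lowest points lie between B and just past C in all 3 states of A (-0.58, -1.02 and -0.89), with 0, 8 and 6 filled points.

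Whether the effect of losing both B OSN sites itself depended on A was tested as an interaction. Its size was -3.43 ± 5.3 in area for A removed against A intact (limma adjusted p = 0.801), -7.66 ± 4.9 after centring (limma adjusted p = 0.994) and -7.53 ± 5.7 on the deletion alleles alone (limma adjusted p = 0.996). For A-OSN-1 lost against A intact it was 2.26 ± 6.0 (limma adjusted p = 0.867), and its sign turned to -2.00 ± 5.6 after centring (limma adjusted p = 0.986) and to -7.75 ± 6.4 on the deletion alleles alone (limma adjusted p = 0.822). In the profile 0 windows were called by limma in either, against 1 (A removed) and 94 (A-OSN-1 lost) of all 19693 windows. An unadjusted limma p under 0.05 was reached by 0 and 3 windows of the profile, against 714 and 1765 of all windows. With standard errors of this size and adjustment over all intervals, a difference between states of A as large as the effect of B itself would not have been called.

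The 3 states of A were then compared with each other at a fixed loss of both B OSN sites. The 3 comparisons share clones and are not independent. A.BOSN12.COSN123 was later than BOSN12.COSN123 by an area of -6.38 ± 3.9 over clones (limma adjusted p = 0.303). The difference between both mean curves was -6.88, exceeded in size by 21.4% of regions, and after centring -11.3, exceeded by 0.108%. Under the aggregate control it was -8.26 (3.27% of regions). A limma call was made in 0 of the 50 windows (0.0% of all windows). An unadjusted limma p under 0.05 was reached by 9 of the 50, against 1680 of all 19693 windows. Of the 9, 7 were later, among them 48.15 Mb (-0.60 ± 0.17) and the 3 windows from 48.25 to 48.35 Mb (-0.42 to -0.61). These lie on the side of A, and in A2 A is present.

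AOSN.BOSN12.COSN123 minus BOSN12.COSN123 was 3.44 ± 4.5 (limma adjusted p = 0.667), exceeded in size by 60.4% of regions. Of the 50 windows 0 were called later by limma (0.482% of all windows). An unadjusted limma p under 0.05 was reached by 8 of the 50, against 2959 of all 19693 windows. The direction of the difference in area depended on the control: on the deletion alleles alone it was -8.24 ± 4.8 (limma adjusted p = 0.391) and after centring -0.86. For A.BOSN12.COSN123 minus AOSN.BOSN12.COSN123 the area was -9.82 ± 3.9 (limma adjusted p = 0.227), and between mean curves -10.3, exceeded in size by 2.21% of regions. It had 3 of the 50 windows called later by limma (2.44% of all windows), at 48.15 Mb (-0.61 ± 0.17), 48.20 Mb (-0.68 ± 0.18) and 50.30 Mb (-0.76 ± 0.20). On the deletion alleles alone the area was 0.22, and 0 of 53 windows of the profile were called later (1.15% of all windows). Called earlier were 2 of the 53, against 1723 of all 25132 windows. What the control allele of D6 contributed was not tested on its own.

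Finally, losing both B OSN sites was set beside losing 1 of them and losing all of B. In BOSN1.COSN123 and A.BOSN1.COSN123, which lack B-OSN-1 and keep B-OSN-2, the core of the deletion allele was at 0.53 and 0.52 with A intact and at 0.32 with A removed. With both lost it was 0.07 (A2) and -0.32 and -0.39 (A6, C11). The clones with both lost had the lower ∆area (-30.9 to -24.0, against -18.5 to -15.9), with a difference of -9.39 within states of A and p = 0.111 in an exact two-sided permutation test, the smallest p that 9 arrangements allow, so this design cannot reach 0.05. By limma the areas differed by -6.91 ± 3.9 with A intact (adjusted p = 1.00) and by -11.9 ± 3.9 with A removed (unadjusted p = 0.00406, adjusted p = 0.995, second by p of 677 intervals).

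Against the loss of all of B, ∆area was higher by 4.86 (3 against 7 clones, exact two-sided permutation p = 0.25), and under the aggregate control the difference was -4.85 (exact permutation p = 0.167). The first value mixes controls. Of the clones that lost all of B, 2A.2, 3C.4, 5A.6 and 5A.7 had no unmodified CAST allele and were set against the aggregate WT curve. With A removed, the core of the 2 clones of A.B.COSN123 was at -0.82 and -0.76, below A6 and C11 (-0.32 and -0.39). The area of A6 and C11 was higher by 7.26 ± 3.2 (limma adjusted p = 0.370), and by 0.71 ± 3.4 on the deletion alleles alone (limma adjusted p = 0.907). In A.B.COSN123 the ∆area was -42.9 in 2E.1, against its own control allele, and -32.4 in 5A.7, against the aggregate WT curve. Against the aggregate WT curve 2E.1 was at -34.1. With A-OSN-1 lost, the 5 clones of AOSN.B.COSN123 ranged from -0.26 to 0.48 in the core, and D6 at -0.22 lay within that range. The area differed by 1.97 ± 3.5 (limma adjusted p = 0.804) and by -11.5 ± 3.7 on the deletion alleles alone (limma adjusted p = 0.0208). In the latter 24.4% of 866 intervals were called, and the domain was number 160 by p. In the single clone of A.BOSN12.BTSS.COSN123 the core was at -0.46 and ∆area at -27.99, beside -29.8 and -30.9 in A6 and C11.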

How the data were processed

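E/L Repli-seq was done on F121-9 mESCs and deletion clones. Cells were labelled with BrdU (100 µM, 2 h), separated by DNA content into S-phase fractions, and the labelled DNA was sequenced. The authors aligned reads to an mm10 genome with masked SNPs, split them by homolog, counted 50 kb windows, and scaled, quantile-normalized and loess-smoothed (300 kb) the values, so neighbouring windows are not independent. The deposited values are log2 of early over late reads after these steps, and are thus not plain ratios of read counts. Trim Galore, cutadapt and bedtools are named in the submitters' processing notes, and their versions are not given in the sources used here. Depth is unknown, since only ratios were used.

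Values were used without further transformation. Missing windows were skipped. Where a clone had no unmodified allele with values in the domain, the aggregate WT curve was its control. Repeat cultures of a clone were averaged, and p-values measure the spread between clones. Areas were taken by the trapezoid rule. Comparison regions had values in at least 80% of windows. Those with an allele difference of 0.5 or more in at least 25% of windows in clones of other deletions were left out. The methods' random draws were replaced by all such regions. limma 3.58.1 (lmFit, eBayes) in R 4.3.3 had 1 coefficient per deletion, with Benjamini-Hochberg adjustment and a threshold of 0.05. Exact permutation tests exchanged clones within states of A. Genes named are all protein-coding genes of the annotation that start in the profile. Motifs and guides were matched to GRCm38. The area and limma steps were tested on simulated data. Alternatives covered the control, the interval, missing windows, the comparison regions, the clones and units of the fit, and single clones left out. Centring each allele difference on its genome-wide median was chosen after seeing the data. Of the 71 libraries in the labels, 5 have no column here, and 2 of these are of the deletions described. They were not analysed here. The clones, lists and comparisons were chosen with earlier results of these data known. Python 3.11.15 with numpy 2.4.6, pandas 2.3.3, scipy 1.17.1 and matplotlib 3.10.9 was used.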

Additional observations from a re-analysis of the deposited data

How the results depend on the processing

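Of the values recomputed under alternatives, 184 kept their direction and side of the threshold (or moved by under 1.5 times), 10 reversed, 12 moved, 5 became weaker and 4 stronger. The delay of AOSN.BOSN12.COSN123 was -14.8 over the whole profile (15.6% of regions). The difference in area between AOSN.BOSN12.COSN123 and BOSN12.COSN123 was -8.24 under the aggregate control, -0.63 over 48 to 49 Mb and -0.86 after centring. That between A.BOSN12.COSN123 and BOSN12.COSN123 passed the threshold in these settings (-8.26, -6.02 and -11.3), and that between A.BOSN12.COSN123 and AOSN.BOSN12.COSN123 no longer did under the first 2 (-0.019 and -5.39). In limma over intervals, the deletion allele alone gave -8.24, 0.22, -16.4 (AOSN.BOSN12.COSN123 minus AOSN.COSN123) and -11.5 (minus AOSN.B.COSN123), and centring gave -0.86. The interaction with A-OSN-1 was -7.75 on the deletion allele alone and -2.00 after centring. A.BOSN12.COSN123 minus A.COSN123 ranged from -13.9 to -12.8 with 1 clone left out, and lost its call each time. Over windows called later, AOSN.BOSN12.COSN123 minus BOSN12.COSN123 had 1 and A.BOSN12.COSN123 minus AOSN.BOSN12.COSN123 had 0 on the deletion allele alone, and the latter 1 to 3 with a clone left out. AOSN.BOSN12.COSN123 minus AOSN.COSN123 had 13 on the deletion allele alone and 4 with libraries as units, and A.BOSN12.COSN123 minus A.COSN123 had 3 to 7 with a clone left out. Over all 25132 windows, the deletion allele alone had 1616 called later in AOSN.BOSN12.COSN123 minus BOSN12.COSN123 and 1592 in AOSN.BOSN12.COSN123 minus AOSN.COSN123. With libraries as units the latter had 300 of 19451. The permutation difference to the loss of all of B was -4.85 under the aggregate control. Windows delayed by 1 or more were 7, 11, 16 and 17 in A2, D6, A6 and C11 and 6 in all 4, and 34 were delayed by 0.25 or more in D6. The cause of these changes was not tested. Both deletions with 1 clone have no replicate, unknown depth gives no counting error, and smoothing limits positions to a few windows. No paired analysis was possible because the clones compared are separate lines and the columns of these 4 clones carry no replicate number.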
